A study of Homo sapiens with 6 samples.

Results

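The death-associated protein kinases are a small family of serine/threonine kinases, and 5 genes of the family were examined among the 40205 gene symbols of the count file. The members were matched by symbol, and the set was chosen by the measured difference of DAPK1 between the groups, to which its paralogs DAPK2, DAPK3, STK17A and STK17B were added by family. The difference of DAPK1 is therefore given as a description, with no test. All 5 genes had enough reads to be tested, as did 15047 genes in all.

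DAPK1 is a large kinase that is activated by calcium and calmodulin and that carries ankyrin repeats, cytoskeleton-binding sequence and a death domain. It is known for acting in interferon-induced cell death, autophagy and membrane blebbing, and its promoter is silenced by DNA methylation in many tumours. DAPK2 (also DRP-1) is a smaller calmodulin-regulated kinase, DAPK3 (also ZIPK) has a leucine zipper in place of the calmodulin-binding part, and STK17A and STK17B (DRAK1 and DRAK2) are the more distant relatives, which share mainly the kinase domain. Myosin light chains are substrates shared by several of these kinases.

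RNA-seq was run on cells labelled HepG2, a human liver cancer line, in 3 untreated samples (Control-1 to Control-3) and in 3 samples exposed for 24 h to cationic liposomes (CLs-1 to CLs-3). The liposomes were made of DOTAP, a cationic lipid, with cholesterol and a PEGylated phospholipid. The labels give the dose as 120 µM, while the study's text gives it in µg/ml in some places and in µM in others. According to that text, the concentration was chosen as the IC50 of its viability assay after 24 h, so it lowered viability. Whether the controls received the carrier buffer is not given in the sources used here. The study's text calls the 6 samples independent but does not say whether those of a group came from separate cultures, so p-values measure only the spread between these samples, which may be technical.

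The libraries held 11418527 to 13998946 reads counted on genes. A count of 3, taken as the floor, corresponds to 0.214 to 0.263 CPM (counts relative to the library total) before scaling, and covers counting error only. The label HepG2 was checked against 19 hepatocyte markers. ALB had 0 counts in 5 libraries and 8 in CLs-1, and AFP had at most 1 count in any library. The 19 markers together had 8 to 23 counts in the 5 other libraries and 175 in CLs-1. By contrast, the epithelial marker KRT18 had 10628 to 29346 counts and the mesenchymal marker VIM 10014 to 14821 in all 6. Of the other epithelial and mesenchymal markers, KRT7, KRT8, COL1A1 and COL3A1 had 764 counts or more in every library. Others were low, with at most 61 counts of KRT19, 7 of EPCAM and 9 of CDH1 in any library. Outside CLs-1, DCN had at most 5 counts, THY1 at most 1 and LUM 0. The liver markers are thus at or near 0 in these libraries, which are called by their labels here. CLs-1 also stood apart in transcripts of other tissues, with 290 counts of STAR, 324 of HBB and 1044 of COL1A2, against at most 3, 4 and 2 in the other 5 libraries. The log2 fold changes of the 5 kinase genes are therefore also given without CLs-1.

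DAPK1 was lower in all 3 CLs-treated samples than in any control. Its CPM, scaled by the TMM method, was 81.7, 81.9 and 90.0 in Control-1 to Control-3, from 942, 950 and 1051 reads. It was 30.1, 35.2 and 44.4 in CLs-1 to CLs-3, from 435, 408 and 508 reads. The highest treated sample thus lay well below the lowest control. The mean went from 84.5 ± 4.73 CPM (SD, n = 3) to 36.6 ± 7.28 CPM (SD, n = 3), a log2 fold change of -1.21, or 0.432 times the control. Without CLs-1, the sample with the lowest value, it was -1.09, and without CLs-3, the highest treated sample, it was -1.37. The controls differed by 1.10-fold between the lowest and the highest, and the treated samples by 1.48-fold. The coefficient of variation was 5.60% in the controls, where counting error alone gives 3.20%, and 19.9% in the treated group, where it gives 4.73%.

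A gene was called where edgeR's quasi-likelihood test gave an adjusted p-value under 0.05 with a fold above 1.5 or below 0.67, which held for 13 of the 15047 genes, or 0.0864%. DAPK1 is among them by the choice of the set, and nothing is read from that. Of the 4 paralogs, 0 were called, 0 had an unadjusted p-value under 0.05, and 0 were called by DESeq2's Wald test.

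**Figure D1:**
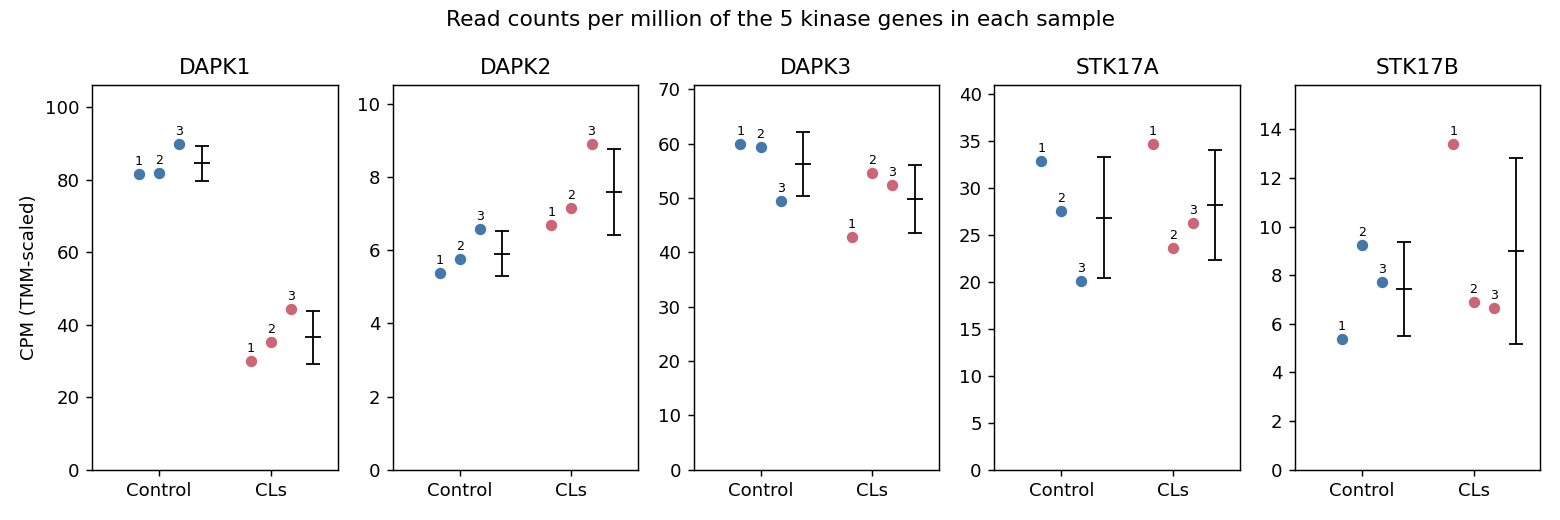
CPM of each kinase gene (vertical axis, TMM-scaled, starting at 0) in the control and CLs-treated samples, with each point labelled by its replicate number. The black mark and bars beside the points are the mean and SD of 3 samples. DAPK1 is lower in every treated sample (30.1 to 44.4 CPM) than in every control (81.7 to 90.0 CPM), while the groups of DAPK3, STK17A and STK17B overlap.

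The sequence before the annotated starts of DAPK1 is shown because this gene was chosen for its difference. Its part in that difference was not tested. RefSeq (GRCh38.p14) gives DAPK1 2 promoter windows on the plus strand, of which the 250 bases before each start are printed below, with CpG dinucleotides in capitals. The first lies at chr9:87497617-87497866 and the second at chr9:87498332-87498581. The counts are totals per gene and do not tell which start was used, and methylation was not measured.
DAPK1, first start: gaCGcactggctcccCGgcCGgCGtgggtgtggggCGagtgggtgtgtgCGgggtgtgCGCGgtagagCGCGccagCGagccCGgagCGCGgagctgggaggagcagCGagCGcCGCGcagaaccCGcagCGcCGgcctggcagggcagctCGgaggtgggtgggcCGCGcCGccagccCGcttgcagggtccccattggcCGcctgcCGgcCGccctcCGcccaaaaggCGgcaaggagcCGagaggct
DAPK1, second start: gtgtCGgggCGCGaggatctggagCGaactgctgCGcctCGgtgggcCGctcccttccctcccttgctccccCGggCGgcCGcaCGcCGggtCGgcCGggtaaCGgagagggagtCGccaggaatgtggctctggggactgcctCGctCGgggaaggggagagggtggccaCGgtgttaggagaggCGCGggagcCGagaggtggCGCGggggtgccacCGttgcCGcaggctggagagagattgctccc

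These windows held 32 and 26 CpGs, with a G and C content of 77.2% and 72.4%. The median over 35116 such windows of the same length was 11 CpGs, and 9.52% and 19.6% of them held at least as many as the first and the second. The paralogs did not stand apart from DAPK1 in this respect, with 27 CpGs in DAPK2, 31 in DAPK3, 32 in STK17A and 35 in STK17B. The TATA box TATAAA was in 0 of the 6 windows, on either strand, and in 10.7% of all windows. The CCAAT box was found in the first window of DAPK1, in DAPK3 and in STK17B, and in 32.0% of all windows. The GC box GGGCGG was in all 6, with 7 matches in STK17A and 1 to 3 in the others, and in 42.6% of all windows. The 6 windows had a G and C content of 68.8% to 79.2%, against a median of 58.0% over all windows. The shares are not matched for this content, so nothing is read from the motif counts. A match of letters is not a bound site.

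DAPK3, the zipper kinase that phosphorylates myosin light chain without calmodulin, had 60.0, 59.3 and 49.4 CPM in Control-1 to Control-3. It had 42.7, 54.5 and 52.3 CPM in CLs-1 to CLs-3. The groups overlapped, since Control-3 lay below CLs-2 and CLs-3. The log2 fold change was -0.17 (95% interval -0.50 to 0.15, adjusted p = 0.998 by edgeR's quasi-likelihood test), or 0.886 times the control with an interval of 0.707 to 1.11. Without CLs-1, its lowest sample, it was -0.07.

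DAPK2, the small calmodulin-regulated kinase, was measured from few reads. It had 62, 67 and 77 counts in the controls and 97, 83 and 102 in CLs-1 to CLs-3. Its CPM was 5.37, 5.78 and 6.59 in the controls and 6.70, 7.16 and 8.92 in the treated samples. Every treated value was above every control value, by a narrow margin between Control-3 and CLs-1. Among all tested genes, the treated samples lay above the controls in 5.34% and below them in 6.18%. The log2 fold change of DAPK2 was 0.36 (95% interval -0.12 to 0.83, adjusted p = 0.939), which did not pass, and its spread in the controls, 10.5%, was no larger than the counting error of 12.1%. Its log2 fold change was 0.44 without CLs-1 and 0.23 without CLs-3, the highest sample.

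STK17A, a nuclear kinase of the family that is known as a target of p53, had 32.9, 27.5 and 20.0 CPM in Control-1 to Control-3. It had 34.7, 23.6 and 26.2 CPM in CLs-1 to CLs-3, with CLs-1 above every control, Control-3 below every treated sample and the others overlapping. Between the groups, STK17A had a log2 fold change of 0.07 (95% interval -0.39 to 0.54, adjusted p = 0.998). Without CLs-1 it was -0.11 and without Control-3 it was -0.10, and with any other library left out it was 0.09 to 0.25, so its sign rests on single libraries.

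STK17B, which is best known from lymphocytes, where it restrains T cell receptor signalling, had 62, 107 and 90 counts in the controls and 194, 80 and 76 in CLs-1 to CLs-3. In CPM these were 5.37, 9.22 and 7.70 and then 13.4, 6.90 and 6.65. CLs-1 was the highest of all 6, while CLs-2 and CLs-3 lay within the range of the controls. The log2 fold change was 0.28 (95% interval -0.39 to 0.96, adjusted p = 0.998), and it was -0.13 without CLs-1 and 0.10 to 0.47 with any other library left out. Its variation in the treated group was 42.6%, against 9.94% from counting error. The 9 blood cell markers had 778 counts in sum in CLs-1 and 155 to 271 in the others. Haemoglobin genes and CD68 made up most of this sum, and the T cell marker CD3E had 0 counts in CLs-1. The part of these transcripts in the STK17B value was not tested.

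The 4 paralogs together had 96.4 ± 11.0 CPM (SD, n = 3) in the controls and 94.6 ± 2.72 CPM (SD, n = 3) in the treated samples. The family as a whole went from 180.9 ± 6.27 to 131.1 ± 6.38 CPM, with DAPK1 making up nearly all of the difference. DAPK1 gave 44.1%, 44.6% and 51.8% of the reads of the family in Control-1 to Control-3. It gave 23.6%, 27.6% and 32.1% in CLs-1 to CLs-3. A share of this kind is taken within a library and does not depend on how libraries are scaled.

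Ratios within a library showed the same with each paralog. The log2 ratio of DAPK1 reads to DAPK3 reads, which is not corrected for length, was 0.45, 0.47 and 0.86 in the controls and -0.51, -0.63 and -0.23 in CLs-1 to CLs-3. Against DAPK2 the mean ratio was 3.84 ± 0.08 (SD, n = 3) in the controls and 2.26 ± 0.08 (SD, n = 3) in the treated samples, the narrowest spread of the 4 ratios. Nothing is read from that spread, since the few DAPK2 reads have a counting error of 12.1% in the controls and 10.3% in the treated samples. Against STK17A the mean ratio was 1.69 ± 0.44 and 0.38 ± 0.51, and against STK17B 3.54 ± 0.39 and 2.08 ± 0.82. In all 4 ratios the treated samples lay below the controls. The fall of the DAPK1 count that chose the set enters each of them, so they are no separate evidence.

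**Figure D2:**
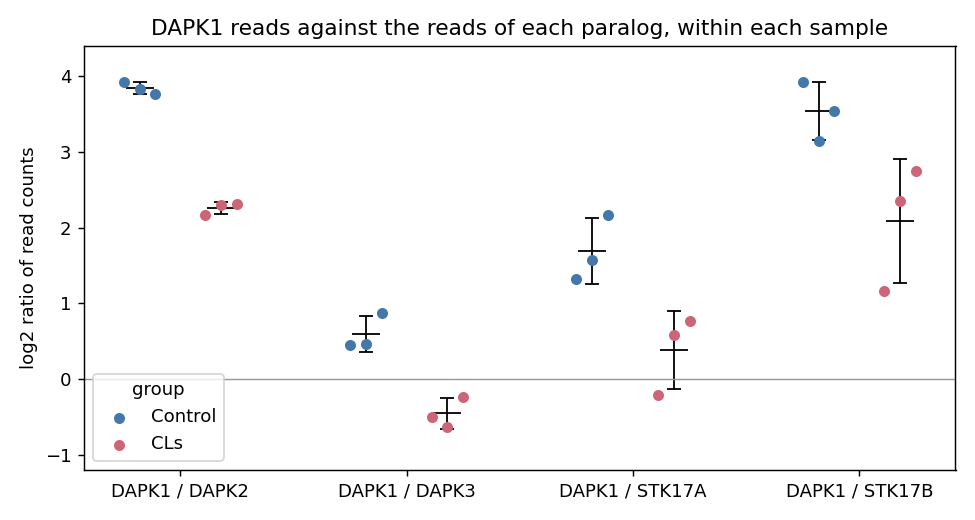
Log2 ratio of DAPK1 reads to the reads of each paralog (vertical axis) in each of the 3 control and 3 CLs-treated samples. The black marks and bars are the mean and SD. Each treated point is below each control point of the same pair. The spread is smallest for DAPK2, which has few reads, and nothing is read from that.

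Levels of different genes were compared as CPM per kilobase of annotated coding-transcript exon. In the controls the order was DAPK3 with 24.9 ± 2.63, DAPK1 with 13.5 ± 0.75, STK17A with 7.96 ± 1.91, STK17B with 1.34 ± 0.35 and DAPK2 with 0.602 ± 0.063 CPM per kilobase (SD, n = 3). No neighbours in this order overlapped. In the treated samples DAPK3 was again highest, with 22.1 ± 2.78. STK17A, with 8.36 ± 1.73, then came before DAPK1, with 5.83 ± 1.16, and these overlapped, since the highest DAPK1 value was 7.08 and the lowest STK17A value 6.99. STK17B and DAPK2 followed with 1.62 ± 0.69 and 0.773 ± 0.119. The order of the last pair rests on the length used, because the annotated exons of DAPK2 add up to 9825 bases and its principal transcript to 2603. With principal transcripts, DAPK2 stood at 2.27 in the controls and 2.92 in the treated samples, above STK17B at 1.41 and 1.70.

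**Figure D3:**
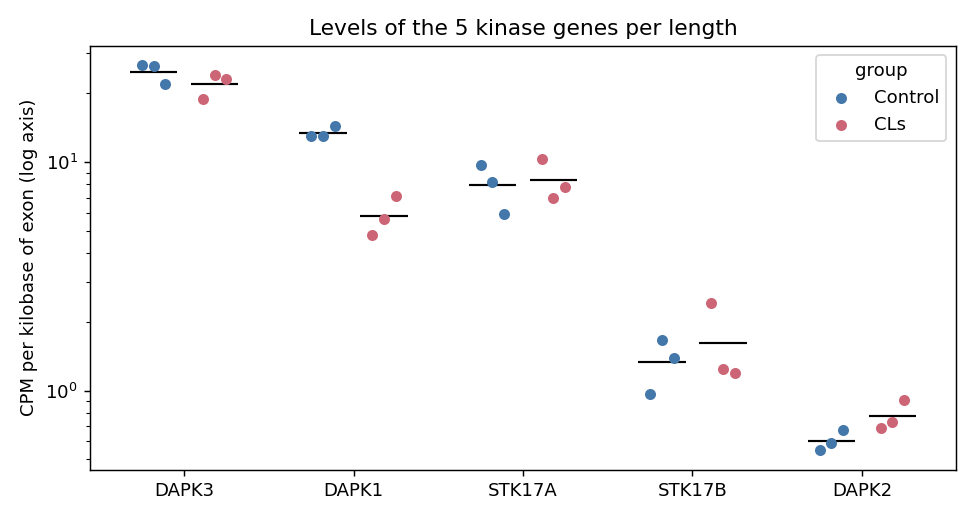
Level of each kinase gene as CPM per kilobase of exon on a log axis, with 1 point per sample and a line at the mean of each group. DAPK3 is highest in both groups, and DAPK1 lies above STK17A in the controls and overlaps it in the treated samples.

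The genes whose pattern over the 6 samples was most like that of DAPK1 were found by the root mean square difference of the centred log2 CPM among 15027 tested genes that are no members and had reads in every sample. The nearest were KRT18P17, KRT18, KRT18P38, IGFBP1 and ACSS2, with differences of 0.14, 0.16, 0.16, 0.17 and 0.19. KRT18 encodes a keratin of simple epithelia, and KRT18P17 and KRT18P38 are pseudogenes that may share its reads. KRT18 had 2050 ± 432 CPM (SD, n = 3) in the controls and 899.1 ± 144.0 CPM (SD, n = 3) in the treated samples. ACSS2, an enzyme that makes acetyl-CoA from acetate, had 27.0 ± 4.44 and 13.8 ± 1.83 CPM, while IGFBP1, a secreted binding protein of insulin-like growth factors, was near the floor with 1.35 ± 0.254 and 0.561 ± 0.048 CPM. The same measure was 0.55 for DAPK3, 0.76 for STK17A, 0.79 for DAPK2 and 0.90 for STK17B. The fall of DAPK1 that chose the set enters this measure. Genes with a similar fall therefore come out near and genes with little change far, so these distances are no separate evidence.

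Lists of genes around the family were then read against all tested genes, whose median log2 fold change was 0.01 and of which 5.81% had an unadjusted p-value under 0.05. In each of the 5 lists, 0 genes were called by edgeR's quasi-likelihood test, and DESeq2's Wald test called MYLK and TPM1, which are described below, and no other listed gene. These are RNA levels, and protein amount, kinase activity and phosphorylation were not measured. The median log2 fold change of 27 tested genes whose proteins regulate or bind these kinases was 0.02. At an unadjusted p under 0.05, 1 of them was lower and 1 was higher. These were PTPRF, a receptor phosphatase that acts on DAPK1, at 273.8 ± 9.30 and 207.8 ± 14.3 CPM (log2 fold change -0.40, adjusted p = 0.459), and RBX1, a subunit of cullin ubiquitin ligases (0.31, adjusted p = 0.791). PPP2CB, a catalytic subunit of the phosphatase PP2A, came next (0.21, adjusted p = 0.977), at 0.05 without CLs-1 and 0.32 without CLs-3.

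Of 13 tested genes of substrates, 2 were lower and 0 were higher at an unadjusted p under 0.05, with a median of -0.09. TPM1, an actin-binding tropomyosin, had 309.4 ± 101.4 CPM in the controls and 158.6 ± 23.8 CPM in the treated samples (log2 fold change -0.96, adjusted p = 0.206). With DESeq2's Wald test its adjusted p-value was 0.00257, and with every gene that had a read it was 0.00105 in edgeR. STAT3, a transcription factor phosphorylated by DAPK3, had -0.30 (adjusted p = 0.826), and the myosin light chain gene MYL9 had -0.49 (adjusted p = 0.904), which was -0.75 without CLs-2 and -0.29 without CLs-3. BECN1, the autophagy protein phosphorylated by DAPK1, had 0.03 (adjusted p = 0.999).

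Among 15 tested genes whose products regulate the DAPK1 gene, 0 had an unadjusted p-value under 0.05. The median was -0.16, with 11 lower and 4 higher. The smallest p-values were those of RELA, a subunit of NF-kB, of SMAD3, which carries TGF-beta signals to DNA, and of HSF1, the heat shock factor. Their log2 fold changes were -0.25, -0.34 and -0.19, with adjusted p-values of 0.872, 0.927 and 0.966. SMAD3 moved to -0.52 without Control-1 and to -0.08 without Control-3, and HSF1 to -0.11 without CLs-1. The DNA methyltransferase genes DNMT1, DNMT3A and DNMT3B had -0.16, -0.31 and -0.28 (adjusted p = 0.977, 0.998 and 0.993).

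Tested were 18 genes of kinases that are regulated by calmodulin or belong to the same kinase group. Of these, 3 were lower and 1 was higher at an unadjusted p under 0.05, with a median of -0.04. MYLK, the smooth muscle myosin light chain kinase, whose kinase domain is a close relative, had 78, 130 and 311 counts in the controls and 106, 49 and 52 in CLs-1 to CLs-3. The control group was widely spread and overlapped the treated one. The fit gave -1.46 on the log2 scale (standard error 0.43, adjusted p = 0.392 by edgeR), and -0.73 without Control-3. DESeq2's Wald test gave MYLK an adjusted p-value of 0.0337, and edgeR with every gene that had a read gave 0.00414. CAMK1D, a calmodulin-dependent kinase, had -0.52 (adjusted p = 0.462), and CAMKK1, which activates such kinases, had 0.57 (adjusted p = 0.258).

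Of 20 tested genes of myosin light chain phosphorylation, 18 were lower and 2 higher, with a median of -0.13, and 2 had an unadjusted p under 0.05. Of all tested genes, 47.9% were lower. The non-muscle myosin heavy chain gene MYH9 had 1418 ± 92.8 and 999.3 ± 73.4 CPM (log2 fold change -0.50, adjusted p = 0.327), and MYLK was the other. The kinase genes ROCK1 and ROCK2 had -0.17 and -0.08, and the myosin phosphatase gene PPP1R12A, which is in the substrate list too, had -0.09.

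**Figure D4:**
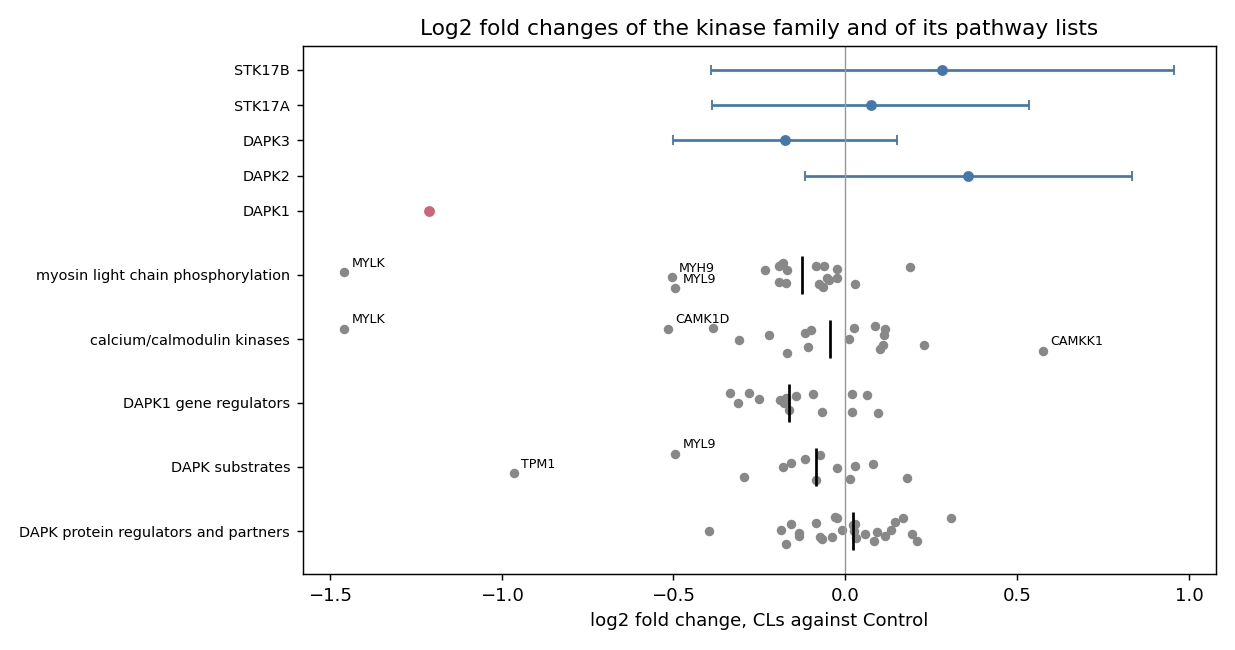
Log2 fold change of CLs against Control (horizontal axis) for the 5 kinase genes, with 95% intervals from edgeR for the 4 paralogs, and for every tested gene of the 5 lists as grey points, with the list's median as a black line. DAPK1 lies at -1.21 and its paralogs between -0.17 and 0.36, whose intervals include 0. Only MYLK and TPM1 among the listed genes lie beyond -0.9.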

How the data were processed

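The authors measured RNA from 3 control and 3 CLs-treated samples on an Ion Proton, aligned the reads left after filtering by MapSplice and deposited counts, whole numbers of reads per gene symbol and not normalized. The submitters' processing notes name HTSeq 0.6.1, hg19 and GRCh37, without their role. The annotation, the strand setting and the treatment of multiply mapped reads are not given in the sources used here. All 6 columns were used.

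Counts were compared in R 4.3.3 with edgeR 4.0.16 (filterByExpr, TMM scaling, quasi-likelihood F test on condition, Benjamini-Hochberg adjustment over 15047 genes). Standard errors and 95% intervals were derived from the F statistic. Genes were called at adjusted p below 0.05 with a fold over 1.5 or under 0.67. With 3 samples against 3, an exact permutation test cannot go below 0.1, so none was used. EBSeq, the study's test, was not used here. DESeq2 1.42.0, other scalings and filters, a replicate block and single samples left out were tried.

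Exon lengths came from the GENCODE basic annotation on GRCh38, another build than that of the counts, and no coordinates of it are given. On that annotation, 27 bases of DAPK2 exons overlap a gene on the other strand. Promoter sequences came from RefSeq, with all 5 genes matched.

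The members and lists were chosen with earlier results of these data known. Genes named from a list are those called and the 3 with the smallest p-values. Beyond that rule, BECN1, DNMT1, DNMT3A, DNMT3B, ROCK1, ROCK2 and PPP1R12A are named for their role, after their values were seen. Some single genes are not reported here.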

Additional observations from a re-analysis of the deposited data

How the results depend on the processing

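Of the 5 kinase genes, DAPK1, DAPK2 and DAPK3 kept their direction under all 13 alternatives, and 0 of the paralogs passed under any. DAPK1 was chosen for its fall, so its kept direction is no separate evidence, and its calls are not read. DAPK1 ranged from -1.22 to -1.19 under other tests, scalings and filters and from -1.37 to -1.09 with single samples left out. STK17A ranged from -0.11 to 0.25 with single samples left out and reversed without Control-3 (-0.0961) and without CLs-1 (-0.1057). STK17B ranged from -0.13 to 0.47 and reversed without CLs-1 (-0.1347). The number of genes called lower and higher was 11 and 2, against 89 and 15 with DESeq2, 113 and 58 with no filter beyond 1 read, and 6 lower by library size only. It was 2 to 6 lower and 1 to 3 higher with single samples left out. The cause was not tested. With DESeq2 and with no filter, 1 gene was called in each of the calmodulin kinase list and the myosin list (MYLK) and 1 in the substrate list (TPM1).

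With the replicate number as a block, 56 genes were called lower and 12 higher, the log2 fold change of DAPK1 was -1.22, and 1 gene of the substrate list was called (TPM1, adjusted p = 0.0151 in edgeR). The deviations from the group means correlated at 0.11, 0.0847 and 0.298 between samples numbered 1, 2 and 3. Every sample correlated best with the sample of its own number, but Control-2 only narrowly, since it reached 0.0821 with CLs-1. The remaining pairs of unlike number lay between -0.1895 and 0.047. With 3 samples in a group, deviations from the group mean depend on each other, and so do these correlations. No match by number is therefore read from them, and it is not part of the design.

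Per kilobase, the share of DAPK1 in the family was 28.1% in the controls and 15.0% in the treated samples, in place of 46.8% and 27.8% of reads. By principal transcript, an alternative chosen after seeing the data, DAPK1 stood at 14.3 in the controls and DAPK2 at 2.27 and 2.92 CPM per kilobase. Depth limits DAPK2 and STK17B most, with as few as 62 reads in a sample.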
